A study of Mus musculus with 12 samples.

Results

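The fibrillar collagen genes Col1a1, Col1a2, Col3a1, Col5a1, Col5a2, Col5a3 and Col11a1 were followed in bulk RNA sequencing of 2 cell fractions from normal and fibrotic mouse liver. The rule that picks them is a list of symbols and holds no measured value, although it was set with earlier results of these data known, and they are 7 of the 23472 genes in the deposited table. To describe these genes in liver fibrosis, male C57BL/6 mice, 6 to 8 weeks old at the start, received carbon tetrachloride (CCl4), a hepatotoxin that scars the liver when given repeatedly, by intraperitoneal injection at 0.6 µl per g body weight, as a 15% solution in olive oil, 2 times per week for 6 weeks. Controls received olive oil, and all mice were 12 to 14 weeks old when sampled. Sinusoidal endothelial cells (SEC), which line the liver capillaries with a fenestrated wall, and hepatic stellate cells (HSC), vitamin A-storing pericytes beneath them, were separated by collagenase perfusion and a density gradient, and the endothelial fraction was purified further with magnetic beads. Control liver gave the quiescent groups Q-SEC and Q-HSC, and CCl4-treated liver gave the fibrotic groups F-SEC and F-HSC, with 3 libraries each. Values of a group are given in the order of its libraries 1, 2 and 3 (Q-SEC.1 is library 1 of Q-SEC). Separate mice are not stated for the libraries within a group, and p-values therefore rest on a spread between libraries that could be technical.

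Fibrillar collagens are long triple helices that are secreted as procollagens, trimmed at both ends and packed side by side into banded fibrils. Type I collagen, built from the chains of Col1a1 and Col1a2, and type III collagen, a homotrimer of the Col3a1 chain, form the bulk of scar fibrils in the liver. Type V collagen, assembled from the Col5a1, Col5a2 and Col5a3 chains, starts fibrils and limits their width, and Col11a1 encodes a closely related chain of type XI collagen, best known from cartilage. Activated stellate cells are regarded as the main source of these chains in scarred liver.

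The libraries held 8714228 to 13068564 counts in genes. Levels are given as CPM, that is gene counts scaled to a common library total with trimmed mean (TMM) factors, and 3 counts, taken as the limit of detection in a library, stood for 0.228 to 0.335 CPM. Such limits cover counting error only. Of the 7 genes, 6 were expressed highly enough to be tested among 14489 genes. Changes are log2 fold changes ± SE from edgeR's quasi-likelihood test over all 12 libraries, with p-values adjusted over all genes tested and called under 0.05.

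The genes lie on mm10 at chr11:94936270-94951856 (Col1a1), chr6:4505697-4541543 (Col1a2), chr1:45311538-45349706 (Col3a1), chr2:27886425-28039510 (Col5a1), chr1:45374331-45503282 (Col5a2), chr9:20770050-20815034 (Col5a3) and chr3:114030540-114220326 (Col11a1). Col5a2 and Col5a3 are on the minus strand and the others on the plus strand. All are built of many short exons, from 51 in the principal transcripts of Col1a1 and Col3a1 to 67 in those of Col5a3 and Col11a1. Col3a1 and Col5a2 are neighbours whose 3′ ends face each other across 24.6 kb. Col5a1 and Col5a3 each overlap noncoding genes on the opposite strand, and the use of strand in counting was not given in the sources used here. Col1a2, Col3a1 and Col5a2 each overlap another annotated gene on the same strand. Reads of all these partners cannot be told apart from those of the collagens.

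Sequence features outside the rule were read from the reference to see what the genes share. The miR-29 family, which in mouse and human is known to repress collagen transcripts, has mature forms that share bases 2 to 8, the seed, shown in capitals as RefSeq (GRCm38.p6) gives them.
mmu-miR-29a-3p: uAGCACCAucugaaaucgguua
mmu-miR-29b-3p: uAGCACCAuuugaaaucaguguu
mmu-miR-29c-3p: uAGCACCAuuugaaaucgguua
The complement of the seed, TGGTGCT, was searched on the transcript strand of 3′ untranslated regions of GENCODE principal transcripts. It occurred at least once in 6 of the 7 genes, 4 times in Col5a1, 3 times in Col5a3, 2 times in Col11a1 and 1 time each in Col1a1, Col3a1 and Col5a2, but not in Col1a2. Of 12940 tested genes with such a region, 14.4% held the letters. One site per gene, the first after the stop codon, is shown with the match in capitals (GENCODE vM21, GRCm38). These are the letters that 6 of the 7 members share.
Col1a1, match at chr11:94952538-94952544: ggaaggaatttcTGGTGCTatagaagctga
Col3a1, match at chr1:45348982-45348988: aaaatgtctcaaTGGTGCTataataaataa
Col5a1, match at chr2:28038004-28038010: actatgaacattTGGTGCTgaattttttac
Col5a2, match at chr1:45374966-45374972: ttcttttaatgaTGGTGCTaaaattatttc
Col5a3, match at chr9:20770781-20770787: acatgggctcctTGGTGCTgaggctctgag
Col11a1, match at chr3:114219083-114219089: tttggatttcgtTGGTGCTgtagaaaacaa
Col5a2 and Col5a3 are read from the minus strand. The Col1a1 match lies past the end of the Col1a1 entry of the deposited table, inside the longer GENCODE gene. A match is a description of the letters and not a measured site. The longest of these regions, 2498 bases in Col5a1, held the most matches, and the shortest with a match, 785 bases in Col5a3, held 3. Over all tested genes, 11.9% of the 1862 genes with a match and 12.2% of the 11078 without one were called higher in F-SEC than in Q-SEC. Of the 296 genes with at least 2 matches, Col5a1 and Col5a3 among them, 16.6% were called higher, which is 49 genes, or 47 of 294 with these collagens left out. Their 3′ untranslated regions were also longer, with a median of 3656 bases against 882 in genes without a match. The 4 miR-29 precursor entries of the table held 0 to 4 counts per library, and the mature forms were not measured here.

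The sequence upstream of the start was compared next, because 6 of the genes moved together in the results described below. RefSeq (GRCm38.p6) entries were found for 5 of the 7 genes but not for Col1a1 and Col5a2. Of these 5, Col11a1 was not among the 6 that moved together. The 250 bases before the RefSeq start are shown for Col1a2, Col3a1 and Col5a1, which stand for the range of base composition. For Col1a2 that start differs from the start of the deposited entry at 4505697. Its 250 bases lie inside the longer GENCODE gene, which begins at 4504814. Capitals mark the CCAAT box (CCAAT or ATTGG), the GC box (GGGCGG or CCGCCC) and the TATA letters (TATAAA or TTTATA), searched on both strands, and no match overlapped another in these 3 sequences.
Col1a2, chr6:4505368-4505617, plus strand: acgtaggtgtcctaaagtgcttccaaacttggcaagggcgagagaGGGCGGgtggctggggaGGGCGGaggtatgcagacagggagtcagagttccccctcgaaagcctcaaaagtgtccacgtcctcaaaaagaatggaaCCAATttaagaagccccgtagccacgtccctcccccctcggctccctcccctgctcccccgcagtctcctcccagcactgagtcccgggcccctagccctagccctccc
Col3a1, chr1:45311288-45311537, plus strand: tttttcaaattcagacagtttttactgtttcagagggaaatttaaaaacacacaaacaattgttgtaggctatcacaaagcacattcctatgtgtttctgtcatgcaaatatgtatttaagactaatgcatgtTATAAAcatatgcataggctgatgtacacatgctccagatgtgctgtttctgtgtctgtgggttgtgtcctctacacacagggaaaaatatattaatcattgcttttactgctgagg
Col5a1, chr2:27886175-27886424, plus strand: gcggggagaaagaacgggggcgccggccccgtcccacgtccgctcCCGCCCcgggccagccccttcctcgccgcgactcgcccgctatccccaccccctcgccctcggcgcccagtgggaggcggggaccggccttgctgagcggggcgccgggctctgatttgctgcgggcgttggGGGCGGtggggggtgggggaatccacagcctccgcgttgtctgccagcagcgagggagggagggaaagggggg
The sequence of Col3a1 was 35.2% G and C and held 0 CpG dinucleotides, while those of Col1a2 and Col5a1 were both GC-rich, at 62.0% and 76.4% with 11 and 28 CpG dinucleotides, and the median over 32851 promoters was 52.4%. The CCAAT letters were found in 33.8%, the GC box in 32.7% and the TATA letters in 12.4% of all promoters. Col1a2, Col5a3 and Col11a1 each held 1 CCAAT and 2 GC boxes, Col5a1 held 2 GC boxes and no CCAAT, and Col3a1 alone of the 5 held the TATA letters and neither of the others.

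Fibrotic endothelial fractions held far more fibrillar collagen RNA than control fractions. In F-SEC against Q-SEC, 6 of the 6 genes tested were called higher, against 11.8% of all genes tested, and 0 were called lower, against 12.1% of all genes. Their log2 changes ran from 3.26 to 8.29, with a median of 5.65 beside -0.05 over all genes tested. All F-SEC libraries lay above all Q-SEC libraries for 6 of the 6 genes, against 19.7% of all genes tested. The 7 genes together took 0.00883 to 0.0450% of gene counts in Q-SEC and 0.968 to 2.70% in F-SEC. In bulk samples a change in the share of cells that make a transcript and a change in its level per cell cannot be told apart, here and in every result that follows.

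Col1a1, the major chain of type I collagen, measured 28.8, 6.27 and 6.58 CPM in Q-SEC and 4223, 2027 and 6828 CPM in F-SEC. Every fibrotic library lay above every control library, and Q-SEC.1 stood above the other control libraries. The log2 change was 8.29 ± 1.08 (adjusted p = 0.001), the largest of the 6. Col1a2, which supplies the other chain of type I collagen, measured 107, 9.72 and 7.23 CPM in Q-SEC and 4914, 2214 and 6514 CPM in F-SEC. The groups did not overlap, the first control library was again the high one, and the log2 change came to 6.79 ± 1.25 (adjusted p = 0.0048). Col3a1, the type III chain and the most abundant of the 7 in F-SEC per length of transcript, measured 206, 25.0 and 20.3 CPM in Q-SEC and 7697, 4647 and 10348.5 CPM in F-SEC. Its log2 change was 6.50 ± 1.10 (adjusted p = 0.0033), without overlap. The size of these changes depended on Q-SEC.1, since without it the log2 changes were 9.40 for Col1a1, 9.06 for Col1a2 and 8.38 for Col3a1.

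Among the type V chains, Col5a1, the chain present in nearly all type V molecules, measured 84.5, 7.42 and 6.15 CPM in Q-SEC and 761, 616 and 1353 CPM in F-SEC. It shared the high first control library and rose by a log2 change of 4.80 ± 1.07 (adjusted p = 0.01), or 7.06 without Q-SEC.1. Col5a2 behaved differently among control libraries, with 64.9, 46.3 and 58.0 CPM in Q-SEC. No Q-SEC library stood apart for this gene. F-SEC held 708, 385 and 756 CPM, a log2 change of 3.45 ± 0.43 (adjusted p = 0.00082), the smallest adjusted p of the 6. Col5a3, the least abundant type V chain, measured 4.04, 3.45 and 2.48 CPM in Q-SEC and 30.9, 17.7 and 47.2 CPM in F-SEC. It was even across the control libraries as well and rose by 3.26 ± 0.50 (adjusted p = 0.0022). Col11a1 was not tested, since it held 0, 1 and 0 counts in Q-SEC and 6, 1 and 6 counts in F-SEC. These counts are near the limit of detection, and no fold change is given.

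**Figure D1:**
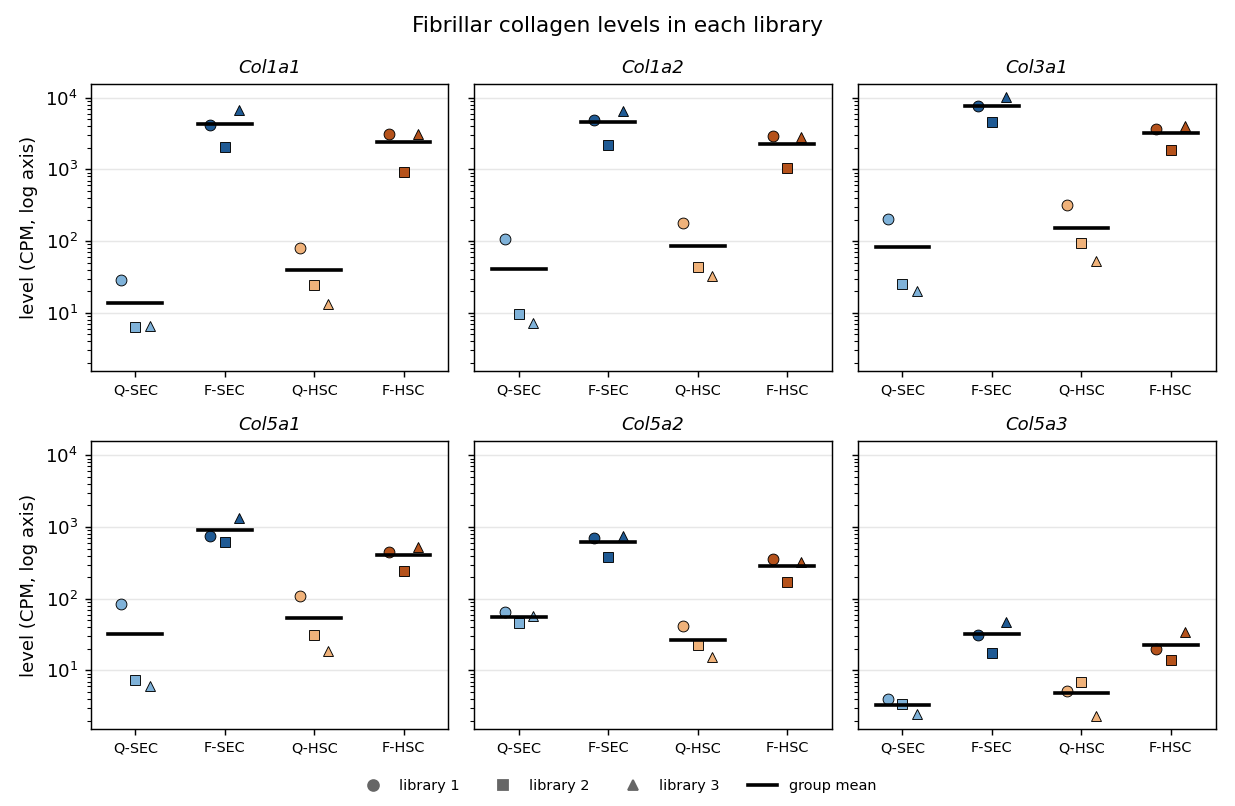
Level of each tested fibrillar collagen gene in each library, in CPM on a log axis, with 1 panel per gene, 1 marker shape per library number and a bar at the group mean of 3 libraries. Fibrotic libraries lie above control libraries in every panel, and the first library of Q-SEC lies well above the other control endothelial libraries for Col1a1, Col1a2, Col3a1 and Col5a1 but not for Col5a2 (64.9, 46.3 and 58.0 CPM) or Col5a3.

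The stellate fractions changed in the same direction. In F-HSC against Q-HSC, 6 of the 6 genes tested were called higher, against 14.7% of all genes, and 0 lower, against 17.6% of all genes. Their median log2 change was 3.90 beside -0.02 over all genes tested. All F-HSC libraries lay above all Q-HSC libraries for 6 of the 6 genes, against 20.7% of all genes tested. The 7 genes took 0.0138 to 0.0804% of gene counts in Q-HSC and 0.450 to 1.06% in F-HSC.

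Col1a1 measured 80.2, 24.8 and 13.2 CPM in Q-HSC and 3141, 923 and 3107 CPM in F-HSC. The groups did not overlap, Q-HSC.1 was the highest control library and F-HSC.2 the lowest fibrotic one, and the log2 change was 5.92 ± 0.97 (adjusted p = 0.0022). Col1a2 measured 181, 43.3 and 32.4 CPM in Q-HSC and 2922, 1050.2 and 2819.9 CPM in F-HSC, with a log2 change of 4.72 ± 1.13 (adjusted p = 0.011). Col3a1 measured 316, 93.7 and 52.4 CPM in Q-HSC and 3697, 1869 and 4040 CPM in F-HSC, and changed by 4.38 ± 1.0 (adjusted p = 0.0087). Both genes repeated the order of libraries seen for Col1a1 among controls, and in both F-HSC.2 was the lowest fibrotic library. Without Q-HSC.1 the log2 changes were 7.01 for Col1a1, 5.94 for Col1a2 and 5.49 for Col3a1.

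Col5a1 measured 110.1, 30.9 and 18.7 CPM in Q-HSC and 454, 248 and 521 CPM in F-HSC. Its log2 change of 2.93 ± 0.98 was the least secure of the 6 (adjusted p = 0.042, 0.0019 to 0.12 over the alternatives run). Without Q-HSC.1 it was 4.08, and the call was lost at 0.12 without Q-HSC.2, at 0.12 without Q-HSC.3, at 0.067 without F-HSC.1, at 0.10 without F-HSC.3 and at 0.053 without a filter on low counts. Col5a2 measured 41.7, 22.5 and 15.4 CPM in Q-HSC and 360.3, 170.3 and 324 CPM in F-HSC, and rose by 3.42 ± 0.43 (adjusted p = 0.00084), nearly the same amount as in the endothelial fraction. Col5a3 measured 5.18, 6.95 and 2.35 CPM in Q-HSC and 19.6, 14.0 and 34.8 CPM in F-HSC, a rise of 2.23 ± 0.48 (adjusted p = 0.0067). For Col5a3 the highest control library was Q-HSC.2 and not Q-HSC.1. Col11a1 held 8, 0 and 0 counts in Q-HSC and 7, 3 and 1 counts in F-HSC, so that all its reads in control HSC came from the first library.

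**Figure D2:**
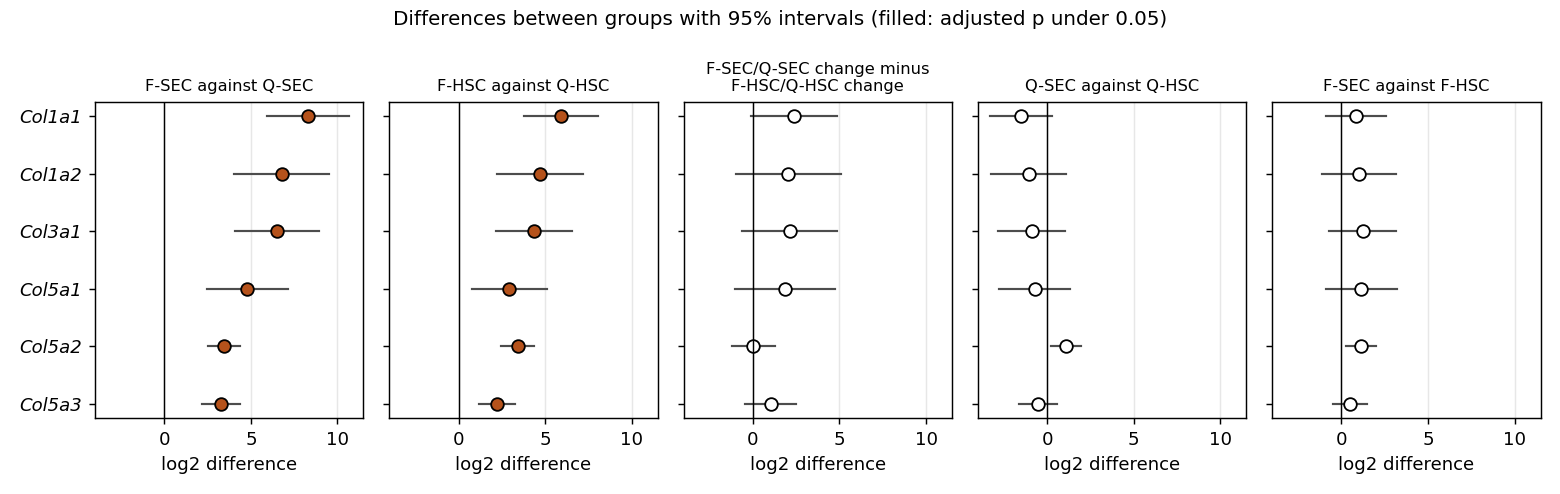
Log2 difference of each tested gene (point) with its 95% interval (line) in the 4 comparisons of groups and in the difference between both CCl4 changes, with filled points for an adjusted p under 0.05. All 6 points are filled in both comparisons with CCl4, from 3.26 to 8.29 in the endothelial and from 2.23 to 5.92 in the stellate fractions, and none is filled in the other panels.

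Whether the CCl4 change differed between the fractions was tested as the difference of both changes. None of the 6 genes was called, against 0.801% of all genes, and 0 had an unadjusted p under 0.05 in edgeR. DESeq2 and limma-voom also called 0. The estimates were 2.37 ± 1.13 for Col1a1, 2.06 ± 1.39 for Col1a2, 2.12 ± 1.24 for Col3a1, 1.86 ± 1.31 for Col5a1 and 1.03 ± 0.66 for Col5a3, all toward a larger change in SEC, with adjusted p from 0.31 to 0.49. For Col5a2 the difference was 0.03 ± 0.56 (adjusted p = 0.99), with a 95% interval from -1.20 to 1.26, and its sign turned in some of the alternatives run. The 95% intervals of the other 5 genes all included 0 and had upper ends from 2.49 to 5.12, so that these libraries do not show equal changes either. Single control libraries moved the estimates of Col1a1, Col1a2, Col3a1 and Col5a1, in that order, to 3.48, 4.34, 4.01 and 4.13 without Q-SEC.1 (adjusted p from 0.051 to 0.11) and to 1.35, 0.92, 1.08 and 0.79 without Q-HSC.1 (adjusted p from 0.54 to 0.79). In the 8 libraries numbered 2 or 3 alone, the difference was called for Col3a1 at 3.04 (adjusted p = 0.04) and Col5a1 at 3.23 (adjusted p = 0.03). In that setting 1712 of 14585 genes tested were called, against 116 of 14489 in the main fit.

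Control fractions were compared to ask which held more collagen RNA at rest. In Q-SEC against Q-HSC, 0 of the 6 genes were called by edgeR, against 29.8% of all genes in either direction, while 1 had an unadjusted p under 0.05. That gene was Col5a2, with a mean of 56.4 ± 9.41 CPM (SD, n = 3) for Q-SEC and 26.5 ± 13.6 CPM for Q-HSC. Each Q-SEC library exceeded each Q-HSC library for this 1 of the 6 genes, while 47.4% of all genes tested did not overlap in one direction or the other. Its log2 difference of 1.09 ± 0.40 missed the threshold in edgeR (adjusted p = 0.063, 0.014 to 0.20 over the alternatives) and passed it in DESeq2 and in limma-voom, which called 1 of the 6 genes each. The other 5 genes had lower means in Q-SEC, with log2 differences from -1.51 ± 0.82 for Col1a1 to -0.54 ± 0.50 for Col5a3, and overlapping groups. These estimates rested on the first libraries. Without Q-SEC.1, Col1a2 (-3.33), Col3a1 (-2.77) and Col5a1 (-2.97) were called lower in Q-SEC, whereas without Q-HSC.1 the same 3 estimates turned to 0.10, 0.18 and 0.38 and Col5a2 was called at 1.55 (adjusted p = 0.014).

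Fibrotic fractions were compared in the same way. In F-SEC against F-HSC, 0 of the 6 genes were called by edgeR, against 25.3% of all genes in either direction, 1 had an unadjusted p under 0.05, and DESeq2 called 1 and limma-voom 0. All 6 means were higher in F-SEC, with log2 differences from 0.49 ± 0.44 for Col5a3 to 1.24 ± 0.88 for Col3a1. Col5a2 was again the gene nearest to a call, at 708, 385 and 756 CPM in F-SEC and 360.3, 170.3 and 324 CPM in F-HSC, without overlap, a log2 difference of 1.11 ± 0.39 (adjusted p = 0.059, 0.017 to 0.16 over the alternatives). Libraries with equal numbers deviated together in these groups, and with the replicate number as a block the Col5a2 difference of 1.13 was called (adjusted p = 0.018). It was also called without F-SEC.2, at 1.37 (adjusted p = 0.041). Col3a1 and Col5a1 did not overlap between the groups either, with adjusted p of 0.33 and 0.39, which makes 3 of 6 genes against 40.8% of all genes tested.

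By mean level the order was F-SEC, F-HSC, Q-HSC, Q-SEC for Col1a1, Col1a2, Col3a1, Col5a1 and Col5a3, and F-SEC, F-HSC, Q-SEC, Q-HSC for Col5a2. The lowest of the 6 fibrotic libraries lay above the highest of the 6 control libraries for 6 of the 6 genes, against 5.52% of all genes tested. Neither the step between the fibrotic groups nor that between the control groups passed the main edgeR test for any gene. For Col5a2 both steps were called with the replicate block and with DESeq2.

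To compare chains with each other, levels were divided by transcript length, and ratios were taken within each library. Type V chains made up a smaller and type I chains a larger part of the mixture in every fibrotic than in every control library of the same fraction. Per length, Col5a2 made up 11.6, 43.3 and 53.6% of the summed level of the 7 genes in Q-SEC but 3.11, 3.18 and 2.35% in F-SEC. It was the most abundant of these 7 genes in Q-SEC.2 and also in Q-SEC.3 but took at most 11.6% in the other libraries. Col1a1 took 7.26, 8.25 and 8.56% in Q-SEC and 26.1, 23.6 and 29.9% in F-SEC, and 12.0 to 13.6% in Q-HSC and 24.7 to 33.2% in F-HSC. Col3a1 led in Q-HSC with 40.1 to 43.9%, and held 33.0 to 42.3% in F-HSC.

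**Figure D3:**
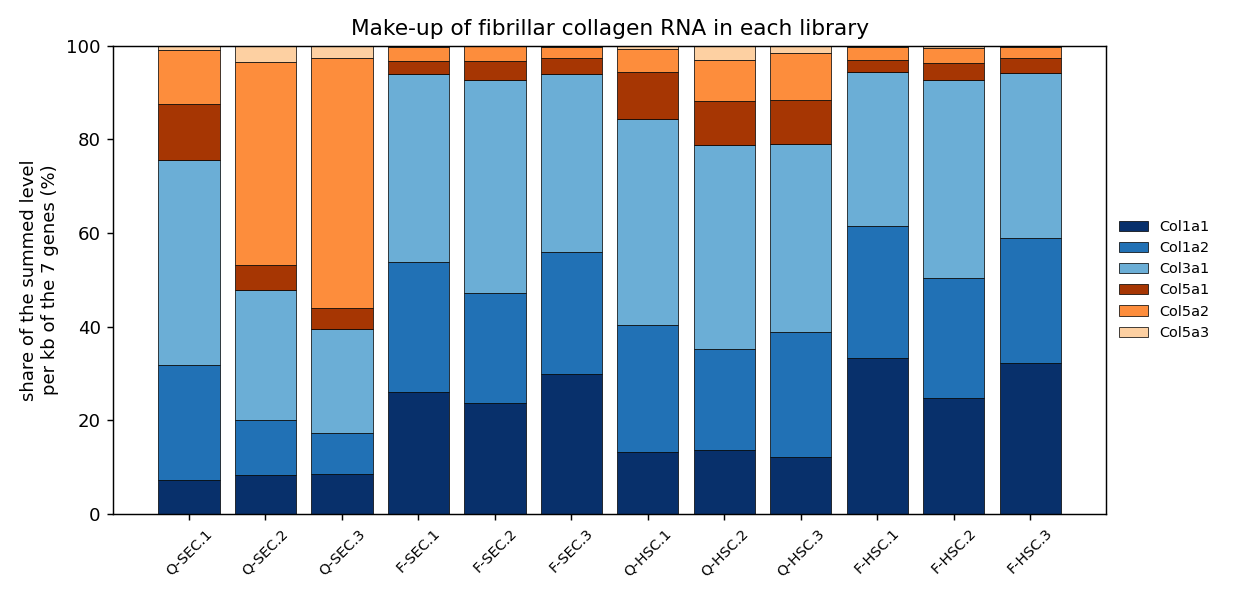
Share of each gene in the summed level per kb of the 7 fibrillar collagen genes, in percent, with 1 stacked bar per library (Col11a1, at most 0.0888%, is not visible and not drawn). Col5a2 takes 43.3% of Q-SEC.2, 53.6% of Q-SEC.3 and 2.35 to 3.24% in the 6 fibrotic libraries, where Col1a1, Col1a2 and Col3a1 fill most of each bar.

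The summed type V chains relative to the summed type I chains measured 0.765, 2.61 and 3.51 in Q-SEC and 0.109, 0.156 and 0.104 in F-SEC, per length. No fibrotic library reached any control library, and the mean log2 ratio was 0.94 ± 1.17 in Q-SEC and -3.05 ± 0.32 in F-SEC (SD, n = 3), a difference of -3.98. In HSC the ratio was 0.388, 0.600 and 0.543 in Q-HSC and 0.0903, 0.144 and 0.0965 in F-HSC, a log2 difference of -2.22, again without overlap. Both gave p = 0.1 in the two-sided exact permutation test, which is the smallest that 3 against 3 libraries allow, and 0.267 adjusted over the 16 ratio tests made.

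Col3a1 relative to Col1a1 was lower with CCl4 in both fractions without overlap, at the same limit of the test. The ratio per length was 6.04, 3.34 and 2.59 in Q-SEC and 1.54, 1.94 and 1.28 in F-SEC, and 3.33, 3.19 and 3.35 in Q-HSC and 0.994, 1.71 and 1.10 in F-HSC. The mean log2 differences were -1.26 and -1.42 (exact permutation p = 0.1 for both, n = 3 per group). The Q-HSC libraries gave nearly one value although their Col1a1 levels ranged from 13.2 to 80.2 CPM.

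Both chains of type I collagen stood nearly level per length in fibrotic libraries, with Col1a1 relative to Col1a2 at 0.941 to 1.15 in F-SEC and 0.962 to 1.21 in F-HSC. In Q-HSC the ratio was 0.486, 0.626 and 0.447, so that Col1a2 exceeded Col1a1 in every control library, and the log2 difference with CCl4 was 1.11 (exact permutation p = 0.1, n = 3 per group, no overlap). In Q-SEC it was 0.296, 0.708 and 0.997, and Q-SEC.3 lay within the fibrotic range (exact permutation p = 0.2, n = 3 per group). Col5a1 relative to Col5a2 was 0.127 for Q-SEC.2 and 0.0841 for Q-SEC.3, against 0.846 to 2.08 in the other 10 libraries, Q-SEC.1 at 1.02 among them. Between Q-SEC and F-SEC its log2 difference was 2.37 (exact permutation p = 0.2, n = 3 per group).

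**Figure D4:**
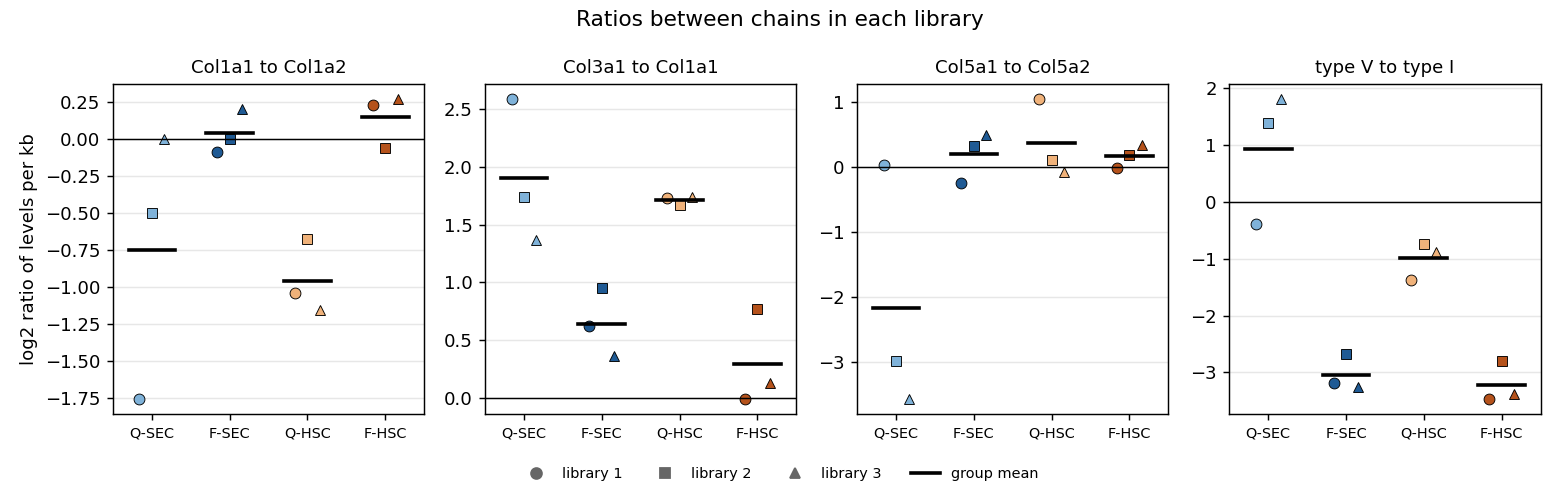
Log2 ratio of levels per kb between chains in each library, with 1 marker shape per library number, a bar at the mean of 3 libraries and a line at 0 where both are equal. Ratios of type V to type I and of Col3a1 to Col1a1 are lower in every fibrotic than in every control library of the same fraction, and Col5a1 to Col5a2 is low for Q-SEC.2 (0.127 as a plain ratio) and for Q-SEC.3 (0.0841).

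Across the 12 libraries, log2 levels of Col1a1, Col1a2, Col3a1, Col5a1 and Col5a3 followed each other with Pearson's r from 0.925 to 0.998, while Col5a2 had the lowest values, 0.865 to 0.920. These are descriptions over 12 libraries that share the CCl4 contrast and the library scaling. Among the 10 genes whose log2 levels were most like the mean of the 6 tested collagens, out of 10257 genes with at least 10 CPM on average, were Tnc, Cd248, Pcdh7, Cpz, Col6a2, Tagln, Col6a3, Gas1 and Tpm2, with r from 0.990 to 0.996. Tnc, the matrix glycoprotein tenascin C, averaged 1.98 CPM in Q-SEC, 193 CPM in F-SEC, 3.31 CPM in Q-HSC and 104 CPM in F-HSC. Col6a2 and Col6a3 encode chains of the beaded filament collagen VI, and Tagln and Tpm2 encode contractile proteins of myofibroblasts.

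Genes that act with fibrillar collagens were counted in lists. For every list count below, the shares of all genes called higher and lower were 11.8% and 12.1% in F-SEC against Q-SEC. In F-HSC against Q-HSC they were 14.7% and 17.6%. Of the other fibrillar collagens, 3 of 4 were tested and none was called in F-SEC against Q-SEC. Col24a1 came nearest, at 2.16 ± 0.82 (adjusted p = 0.079). Col27a1, at 514, 520 and 559 counts in Q-SEC and 736, 415 and 458 in F-SEC, had a log2 change of -0.16 ± 0.23 (adjusted p = 0.64). Col11a2, a type XI chain like Col11a1, had -0.44 in SEC (adjusted p = 0.46) and was called lower in F-HSC, at -1.83 (adjusted p = 0.0064). In a further list, of non-fibrillar collagens, 8 of 9 tested were called higher and 0 lower in F-SEC, and 7 higher and 1 lower in F-HSC. Col12a1, a collagen that coats fibril surfaces, went from 1, 4 and 2 counts in Q-SEC to 941, 344 and 1399 in F-SEC, a log2 change of 8.38 ± 0.87 (adjusted p = 0.00035). Col8a2 (5.57 ± 0.69), Col8a1 (3.16 ± 0.44) and Col6a3 (5.01 ± 0.79) followed, and Col20a1 was the gene that fell in F-HSC, by 2.22 on the log2 scale (adjusted p = 0.0069).

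Procollagen folding and modification genes moved in part, with 10 of 24 called higher and 1 lower in F-SEC, a median log2 change of 0.70, and 10 higher and 0 lower in F-HSC, a median of 0.64. Plod2, the lysyl hydroxylase that acts on telopeptides, rose by 3.32 ± 0.35 in F-SEC (adjusted p = 0.00039), Fkbp10, a chaperone of the same step, by 4.23 ± 0.60, and Leprel2, a prolyl 3-hydroxylase, by 2.48 ± 0.37. Larp6, which binds type I collagen transcripts, held 0 counts in all 3 Q-SEC libraries and 36, 19 and 19 counts in F-SEC, at least 7.13-fold higher than the limit of 3 counts per library. The exception was P4ha2, a prolyl 4-hydroxylase subunit, at -0.62 ± 0.20 (adjusted p = 0.044).

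Of the genes for propeptide removal and crosslinking, 8 of 12 were called higher and 0 lower in F-SEC, and 6 higher and 1 lower in F-HSC. Lox, which starts crosslinking by oxidizing lysines, measured 19, 21 and 28 counts in Q-SEC and 801, 577 and 1332 counts in F-SEC, and its log2 change was 5.18 ± 0.46 (adjusted p = 0.00017). It changed by 5.09 in F-HSC (adjusted p = 0.00026). Bmp1, the procollagen C-proteinase, rose by 2.65 ± 0.39 in F-SEC, its enhancer Pcolce by 2.33 ± 0.36 and Loxl1 by 5.01 ± 0.92. Pcolce2 was the gene that fell in F-HSC, by 2.0 on the log2 scale (adjusted p = 0.0084).

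Fibril assembly partners were called higher for 7 of 10 in F-SEC and for 3 of 10 in F-HSC, and lower for 0 in both. Fmod, a small proteoglycan on fibrils, rose by 5.32 ± 0.79 in F-SEC, Dpt by 7.62 ± 1.25, Fn1, the fibronectin on which collagen fibrils are laid down, by 2.51 ± 0.49, and Postn by 4.24 ± 0.98. Collagen receptors and breakdown genes were called higher for 10 of 15 in F-SEC and 8 of 15 in F-HSC, and lower for 0. Ctsk, a collagen-degrading cathepsin, rose by 3.04 ± 0.35 in F-SEC, Mmp13, a collagenase, by 4.74 ± 0.55, Itga11, a collagen-binding integrin chain, by 6.63 ± 0.85, and Timp1, an inhibitor of metalloproteinases, by 4.67 ± 0.68.

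Markers of the labelled and of other cell types were read beside the collagens. All 15 sinusoidal endothelial markers were detected in every library, and their summed level was 32447 to 37204 CPM in Q-SEC, 11064 to 15393 CPM in F-SEC, 11412 to 15314 CPM in Q-HSC and 3019.8 to 5759 CPM in F-HSC. Of these 15, 12 were called lower in F-SEC than in Q-SEC and 13 lower in F-HSC than in Q-HSC. All 15 stellate markers were likewise detected in every library. Their sum was 3617, 596 and 432 CPM in Q-SEC, 3500.3 to 5998 CPM in F-SEC, 4279.8, 1141 and 914 CPM in Q-HSC and 1839 to 2519 CPM in F-HSC.

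Stellate markers were called higher for 5 of 15 and lower for 0 in F-SEC against Q-SEC, against 11.8% and 12.1% of all genes. In F-HSC against Q-HSC these counts were 2 and 0, against 14.7% and 17.6% of all genes. In F-SEC against F-HSC all 15 estimates were positive and 3 were called, against 25.3% of all genes in either direction. In Q-SEC against Q-HSC 1 of 15 was called higher and 1 lower, against 29.8% of all genes in either direction. In every HSC library the stellate sum lay below both the sinusoidal endothelial and the macrophage sum. The group names follow the labels, and the purity of the fractions was not tested. The first libraries of Q-SEC and Q-HSC, which held the most Col1a1, Col1a2, Col3a1 and Col5a1 of their groups, also held the most stellate marker RNA. The summed fibrillar collagens relative to the summed stellate markers were 0.137, 0.165 and 0.233 in Q-SEC and 0.172, 0.195 and 0.147 in Q-HSC, against 5.24, 1.80 and 4.31 in F-SEC and 5.76, 1.70 and 4.31 in F-HSC. The control values lay close together although the summed collagens themselves ranged from 98.3 to 735 CPM. The part of stellate cell RNA in the collagen levels of the endothelial fractions was not tested.

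**Figure D5:**
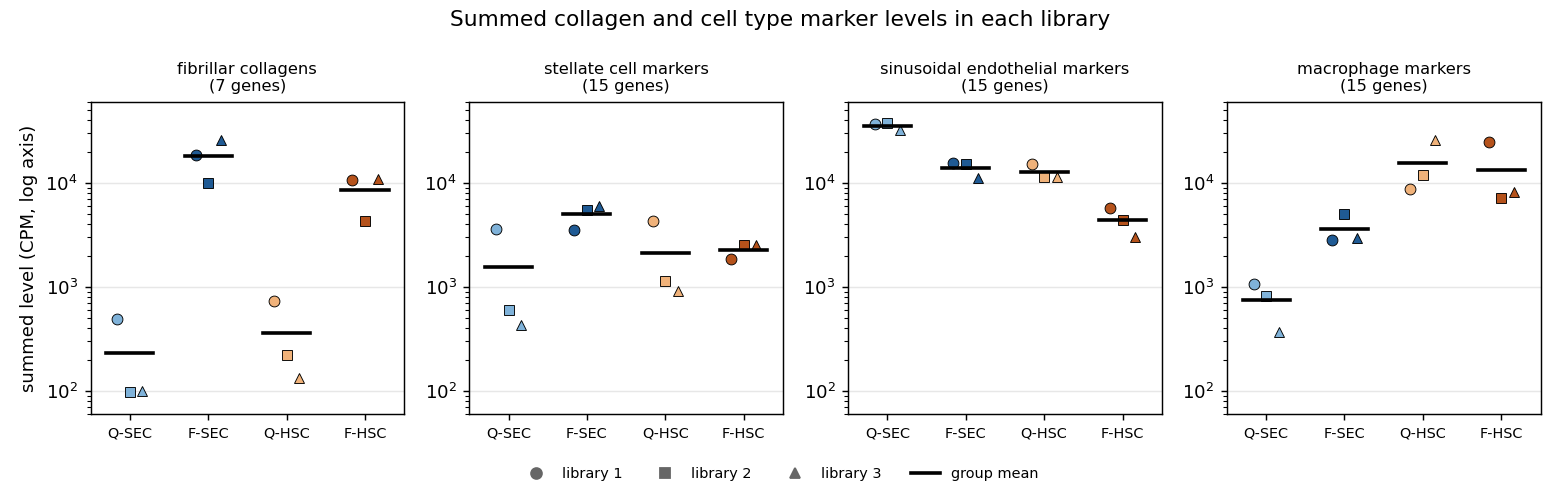
Summed level, in CPM on a log axis, of the 7 fibrillar collagens and of 15 stellate, 15 sinusoidal endothelial and 15 macrophage markers in each library, with 1 marker shape per library number and a bar at the mean of 3 libraries. Collagens and stellate markers are both high in the first library of Q-SEC (495 and 3617 CPM) and of Q-HSC (735 and 4279.8 CPM), and only the collagens are higher in F-HSC than in all Q-HSC libraries.

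Myofibroblast markers were called higher for 5 of 6 in F-SEC and 3 of 6 in F-HSC, with sums of 12.1 to 104 CPM in Q-SEC, 601 to 1355 CPM in F-SEC, 30.3 to 125 CPM in Q-HSC and 302 to 560 CPM in F-HSC. Portal fibroblast markers were called higher for 6 and lower for 1 of 8 in F-SEC and for 5 and 1 in F-HSC, and mesothelial markers higher for 5 and 4 of 7 and lower for 0. Their sums were 502 to 626 and 22.3 to 66.4 CPM in Q-SEC against 742 to 855 and 58.1 to 126 CPM in F-SEC. Most of the portal fibroblast sum in Q-SEC came from 1 gene, Gas6, at 433 to 515 CPM in Q-SEC and 224 to 323 CPM in F-SEC. Macrophage markers were called higher for 10 of 15 in F-SEC, and higher for 1 and lower for 3 in F-HSC, with sums of 372 to 1064 CPM in Q-SEC, 2820.1 to 5010 CPM in F-SEC, 8706 to 25642 CPM in Q-HSC and 7162 to 24631 CPM in F-HSC. Of hepatocyte markers, which summed to 1325 to 3947 CPM in Q-SEC, 2081 to 3202 CPM in F-SEC, 2419 to 6319 CPM in Q-HSC and 10969.8 to 26830 CPM in F-HSC, 0 of 9 were called in F-SEC and 4 of 9 were called higher in F-HSC, of cholangiocyte markers 0 of 6 and 2 of 6, and of lymphocyte and neutrophil markers 0 of 9 and 1 of 9, with 0 called lower in either. No marker in these lists was at 0 in all libraries of a group. The part of any of these cells in the collagen levels was not tested.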

How the data were processed

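Bulk RNA of 12 libraries was sequenced on an Illumina instrument. Per the labels' processing notes, the authors used bcl2fastq, TopHat2 2.0.13 and the mm10 build. The counting tool, its use of strand and the version of bcl2fastq are not given in the sources used here. The deposited counts are whole reads per entry. The deposited RPKM values, scaled by the authors by entry length and column total, served only to check the counts. Of 56826 lines, 1 without values and 33353 cDNA clone entries, which held 16.3 to 24.9% of counts and can repeat reads of genes, were set aside, and 23472 genes were kept. The members and gene lists were chosen with earlier results of these data known.

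Tests used edgeR 4.0.16 in R 4.3.3 (filterByExpr, TMM factors 0.899 to 1.09, robust quasi-likelihood fit, 1 coefficient per group, 8 residual degrees of freedom). Adjusted p-values follow Benjamini and Hochberg over 14489 genes. Chain ratios used length-scaled CPM with a prior count of 0.5 and two-sided exact permutation tests. By rule, the text names all 7 members, of each collagen-related list up to 4 genes with the lowest adjusted p in F-SEC against Q-SEC and up to 2 called against the list, and the 10 most alike genes by Pearson's r of log2 CPM with a prior count of 2, of which 1 is not reported here. The sum of collagens per sum of stellate markers was added after seeing the data. The lists also held Col21a1, Muc16, Tf and Ly6g, not analysed here. On simulated counts for F-SEC against Q-SEC (14266 genes run), 29% of genes changed 2-fold and 79% of those changed 4-fold were recovered, with 5.26% false calls. No libraries were duplicates (chi-square per degree of freedom 19.9 to 188 within groups). Library 1 of a group is the one whose title has no number. Deviations of equally numbered libraries correlated at over 0.1 for every number in some pairs of groups. These were Q-SEC and F-SEC (0.31, 0.25, 0.16), Q-SEC and F-HSC (0.32, 0.14, 0.22) and the fibrotic groups (0.47, 0.45, 0.43). For Q-SEC and Q-HSC the correlations were 0.53, 0.5 and -0.01. Alternatives were DESeq2 1.42.0, limma-voom (limma 3.58.1), RLE scaling, other filters, an adjusted p under 0.01, the replicate block, only the libraries compared, only libraries numbered 2 and 3, and omission of each library.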

Additional observations from a re-analysis of the deposited data

How the results depend on the processing

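With each library left out in turn, called genes ranged from 1710 to 3179 in F-SEC against Q-SEC (3455 with all libraries), 2612 to 4365 in F-HSC against Q-HSC (4680), 3 to 743 for the difference of both changes (116), 3032 to 4160 in Q-SEC against Q-HSC (4317) and 2445 to 3285 in F-SEC against F-HSC (3671). Called members then stayed at 6 in F-SEC against Q-SEC and ranged from 5 to 6 in F-HSC against Q-HSC, 0 to 3 in Q-SEC against Q-HSC (3 when Q-SEC.1 was left out, 1 when Q-HSC.1 was) and 0 to 1 in F-SEC against F-HSC (1 without F-SEC.2). At an adjusted p under 0.01 the gene counts were 1262, 1985, 4, 2399 and 1679 in that order of comparisons. For the difference, DESeq2 called 911 genes, limma-voom 25 and libraries 2 and 3 alone 1712, with 2 members. Libraries 2 and 3 alone called 4 members in Q-SEC against Q-HSC, and DESeq2 and limma-voom 1 each. DESeq2 called 1 in F-SEC against F-HSC. Beside these counts, the main fit called 29.8% of all genes in Q-SEC against Q-HSC and 25.3% in F-SEC against F-HSC. Alternatives that did not omit a single library called 2399 to 5277 and 1679 to 4457 genes in these 2 comparisons. With the replicate block the difference held 183 calls, and 1 member was called in Q-SEC against Q-HSC and 1 in F-SEC against F-HSC, both times Col5a2. Deviations of equally numbered Q-SEC and Q-HSC libraries correlated at 0.53 and 0.5 for numbers 1 and 2 but at -0.01 for number 3. The block changed no other call of a member. The causes were not tested.

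The Col5a2 difference of 0.03 turned to -0.05 with limma-voom, to -0.24 with libraries 2 and 3 alone and to -0.42 to 0.34 with libraries left out (below 0 without Q-SEC.2, F-SEC.1, F-SEC.3, Q-HSC.1 or F-HSC.2). Without Q-HSC.1 the Q-SEC against Q-HSC estimates of Col1a2, Col3a1 and Col5a1 turned to 0.10, 0.18 and 0.38, over ranges from -3.33, -2.77 and -2.97. Ratios near 0 also turned: Col1a1 to Col1a2 (0.21, range -0.17 to 0.71) and Col3a1 to Col1a1 (0.19, range -0.16 to 0.45) in Q-SEC against Q-HSC, Col5a1 to Col5a2 in F-HSC against Q-HSC (-0.19, range -0.41 to 0.16) and F-SEC against F-HSC (0.02, range -0.13 to 0.24), and type V to type I in F-SEC against F-HSC (0.17, range -0.01 to 0.38). The other ratio values (137 of 144) kept their direction, and since the exact test of 3 against 3 libraries cannot go below 0.1, no ratio could pass the threshold. Of 453 single-gene values, 419 kept direction and side of the threshold.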

Other observations

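Deposited counts and RPKM values of the same entry and library were compared by computing the count that each RPKM value implies. They differed by over 1% in 7 values of 5 genes, and in none of the fibrillar collagens, whose largest gap was 0.0004%. Des, a filament gene of stellate cells, was listed at 66 counts in Q-SEC.1, where its RPKM implied 53.4. Jag1, a Notch ligand, was listed at 431 counts in Q-SEC.3 against 365 implied, and at 959 in F-SEC.1 against 1165.9 implied. Hes1, a Notch target, was listed at 1632 counts in Q-SEC.1 against 1653 implied, and at 2116 in F-SEC.2 against 1895.7. Flt4 and Kdr, endothelial receptors for vascular growth factors, were listed at 7308 and 11069 counts in Q-HSC.1 against 7205.6 and 11255.3 implied. Des, Flt4 and Kdr are among the markers summed in the report, which used the counts as listed.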
